A study of Mus musculus with 10 samples.

Results

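The basement membrane is the thin sheet of matrix under the endothelium and around each smooth muscle cell of the aortic wall. Its proteins other than collagen were followed here at the RNA level in 10 genes: the laminin chains *Lama2*, *Lama3*, *Lama4*, *Lama5*, *Lamb1*, *Lamb2* and *Lamc1*, the nidogens *Nid1* and *Nid2*, and *Hspg2*, which encodes perlecan. The genes were taken by symbol, 10 of the 55453 symbols in the deposited table of counts, and all 10 had reads in every library and were among the 14614 genes with enough counts to be tested. The study asked which genes and pathways change in arteries with age. It sequenced poly(A) RNA of aortae, cleared of the fat that surrounds them, from 10 male C57BL/6 mice that were killed at the same time. One library was made per mouse, 5 from young mice of 14.5 weeks and 5 from old mice given as 92.5 weeks in the sample labels. The labels give no transgene, deletion or treatment for either group, and age is the only difference between the groups that they name.

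A laminin is a cross-shaped trimer of an alpha, a beta and a gamma chain. The alpha chain carries the domains that bind cell-surface receptors, and the short arms of the chains let laminins polymerise into a sheet. Nidogens bind the laminin gamma 1 chain and tie this sheet to the collagen IV network, and perlecan, a large heparan sulfate proteoglycan, bridges both networks, binds dystroglycan and holds growth factors. In vessels, alpha 4 and alpha 5 laminins are the main laminins beneath the endothelium, and smooth muscle cells also deposit alpha 2 and alpha 5 laminins with beta 1 or beta 2 and gamma 1.

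The libraries held 19640401 to 22886153 counts, with ranges that overlapped between young and old aortae. Mitochondrial genes took 4.5 to 6.51% of the counts in 9 libraries and 11% in old replicate 2. Contractile smooth muscle markers were high in every library, with a summed level of 34450 to 43660 CPM, the counts scaled to an equal library total, and a list of mesothelial and epithelial markers summed to no more than 1.76 CPM. In a bulk sample, fewer cells of a type and less RNA per cell cannot be told apart. Levels are given as normalized counts, which are counts divided by a size factor per library, and differences as log2 of old over young from edgeR's quasi-likelihood test with Benjamini-Hochberg adjustment over all 14614 genes. Genes with an adjusted p below 0.05 are described as changed.

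Of the 10 genes, 5 were lower in old aortae and 0 were higher. *Lamb1* fell the most, by 37.0%, and *Lama4*, *Lamc1*, *Nid2* and *Hspg2* fell by 19.1 to 24.0%. The other 5, *Lama2*, *Lama3*, *Lama5*, *Lamb2* and *Nid1*, did not pass the test. Over the whole table, 11.5% of genes were called, 4.99% lower and 6.48% higher. The log2 difference was negative for 8 of the 10 and positive for *Lama5* and *Lamb2*, with a median of -0.32 against 0.00339 over all genes tested. Within the laminins, at least 1 chain of each kind was lower and the most abundant beta chain was not among those called.

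**Figure D1:**
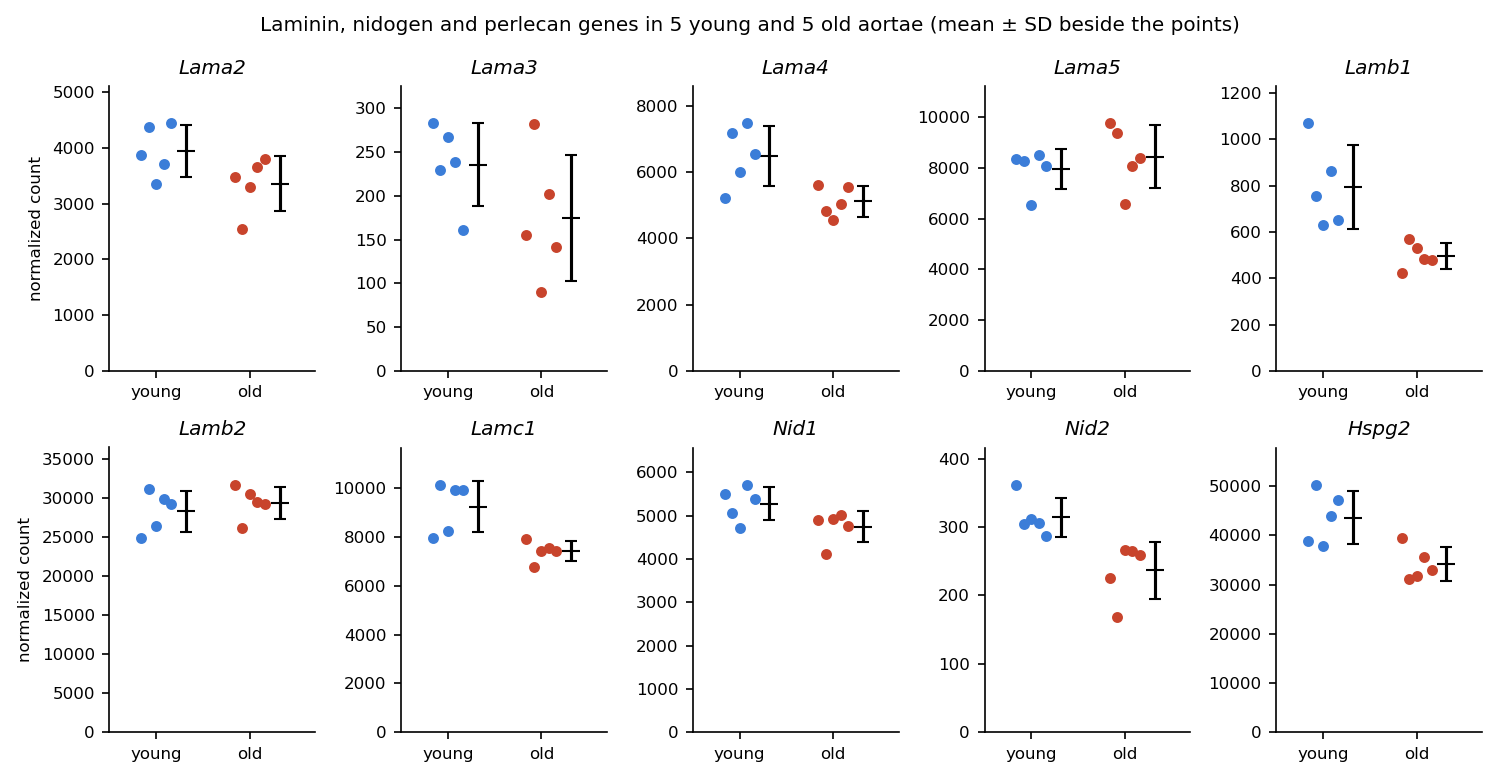
Normalized counts of the 10 genes in each mouse, 1 panel per gene with a vertical axis that starts at 0, points for the 5 young and 5 old aortae and bars for the group mean ± SD. The young and old points of *Lamb1*, *Lamc1* and *Nid2* do not overlap, with *Lamb1* at 629 to 1070.3 in young and 424 to 569 in old aortae, and the points of *Lama5* and *Lamb2* overlap.

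Levels between genes were compared per kilobase of exon, using the union of a gene's exons. In young aortae *Lamb2* stood first with 4643 ± 425.5 normalized counts per kb (SD, n = 5), followed by *Hspg2* with 3047 ± 371 and *Lamc1* with 1114 ± 126. No library of one of these 3 genes overlapped the next gene in the order. *Nid1*, *Lama5* and *Lama4* came next with 759.8, 698 and 538 per kb. The ranges over mice of *Nid1* and *Lama5* overlapped, as did those of *Lama5* and *Lama4*, although within each of the 5 young libraries *Nid1* was above *Lama5* and *Lama5* above *Lama4*. *Lama2* followed at 241.5, *Lamb1* at 80.1, *Nid2* at 60.7 and *Lama3* at 21.9, and only *Lamb1* and *Nid2* among these overlapped in range, with *Lamb1* above *Nid2* within all 5 libraries. In old aortae *Lama5*, at 741 ± 109 per kb, stood above *Nid1*, at 683 ± 51.8, with overlapping ranges, and was above it in 3 of the 5 libraries. The order in both groups holds for the union of exons only. *Lama4* has 12068 exon bases but a longest transcript of 6046, and *Lama5* has 11388 by either. With the longest transcript, *Lama4* held 42.7 to 51.7% of the alpha chain RNA in young aortae and *Lama5* 29.7 to 36.2%.

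The alpha chains give a laminin its receptor specificity in the basement membrane. *Lama5* encodes the alpha 5 chain, of which the arterial endothelium and smooth muscle both make laminin. Its normalized counts were 8352, 8268, 6555, 8512 and 8057 in young replicates 1 to 5 and 9761, 9381, 6588, 8063 and 8400.1 in old replicates 1 to 5. The groups overlapped over most of their range, and young replicate 3 and old replicate 3 were the lowest of their groups. The log2 difference was 0.09 ± 0.10 (SE, edgeR adjusted p = 0.613), with a 95% interval of -0.13 to 0.32.

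*Lama4* encodes the alpha 4 chain, a truncated alpha chain typical of endothelial and mesenchymal basement membranes, and lies on chromosome 10 (ENSMUSG00000019846, GRCm38 38965515 to 39110188). It was at 5232, 7192, 5995, 7482 and 6553 normalized counts in young aortae and at 5604, 4815, 4565, 5045 and 5568 in old aortae. Young replicate 1 was below old replicates 1 and 5, and the other 4 young mice were above every old mouse. The mean fell from 6491 ± 909 to 5119.5 ± 459 (SD, n = 5 each), a log2 difference of -0.33 ± 0.10 (edgeR adjusted p = 0.0382).

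*Lama2*, which encodes the alpha 2 chain of muscle and Schwann cell laminins, had a mean of 3946 ± 461 in young and 3355 ± 492 in old aortae. Its values ran from 3343 to 4443 and from 2543 to 3799, and the lowest was old replicate 2. The log2 difference of -0.23 ± 0.11 did not pass the test (edgeR adjusted p = 0.196). *Lama3* encodes the alpha 3 chain, known chiefly from epithelia, where its laminin anchors hemidesmosomes. It was at 283, 229, 267, 239 and 161 in the young mice and at 156, 282, 90.4, 202 and 142 in the old mice. Old replicate 2 was level with the highest young mouse while the other 4 old mice lay lower, and the old group had the widest spread of any group of the 10 genes, with a coefficient of variation of 41.4%. Its log2 difference was -0.43 ± 0.26 (edgeR adjusted p = 0.331), with an interval of -1.01 to 0.15 that spans both a fall larger than that of *Lama4* and a small rise.

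*Lamb1* and *Lamb2* encode the beta 1 and beta 2 chains, which stand in for each other in otherwise equal laminins. *Lamb1* (ENSMUSG00000002900) lies on the forward strand of chromosome 12 at 31265234 to 31329644, and *Lamb2* (ENSMUSG00000052911) on the forward strand of chromosome 9 at 108479736 to 108490530, in GRCm38. *Lamb1* was at 1070.3, 758, 629, 862 and 652 normalized counts in young aortae. In old aortae it was at 424, 569, 530.3, 484 and 479. Every old mouse was below every young mouse, and young replicate 1 stood above the rest of its group. The mean fell from 794 ± 180.1 to 497 ± 55.0 (SD, n = 5 each), a log2 difference of -0.67 ± 0.14 (edgeR adjusted p = 0.00937, 95% interval -0.97 to -0.37). Without young replicate 1 the log2 difference was -0.54 with an adjusted p of 0.00537, and *Lamb1* passed the test whichever of the 10 mice was left out.

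*Lamb2* was at 24787, 31046, 26343, 29787 and 29239 in young and 31659, 26113, 30433, 29416 and 29141 in old aortae, and the groups overlapped. The lowest value was that of young replicate 1, the mouse with the highest *Lamb1*. The log2 difference of *Lamb2* was 0.06 ± 0.08 (edgeR adjusted p = 0.655), and its 95% interval of -0.10 to 0.23 lies above the whole interval of *Lamb1*. The difference between the paralogs was given as these intervals and was not itself tested.

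The RefSeq promoter windows of *Lamb1*, which fell, *Lamb2*, its paralog that did not pass the test, and *Hspg2*, the gene with the highest level per kb among those that fell, are printed to set the start regions of called and uncalled genes side by side. Each window holds 250 bases before and 50 after the RefSeq start site in GRCm38.p6, on the forward strand. Windows of 6 of the 10 genes were used. Those of *Lama3*, *Lama4*, *Lamc1* and *Nid2* were not. Of the genes called lower, only *Lamb1* and *Hspg2* therefore had a window. Capitals mark matches on either strand. The letters GGGCGG are the GC box, which transcription factors of the Sp family bind. The CCAAT box, a site of nuclear factor Y, was searched by the letters of its name. The TATA box, TATAAA, marks starts of the basal machinery. The E-box, a site of helix-loop-helix factors, was CACGTG. For AP-1, the factor of Jun and Fos, it was TGANTCA. SMAD proteins, the effectors of TGF-beta, have CAGAC as a core. The CArG box of serum response factor, which drives smooth muscle genes, was searched too, and no match in these windows overlaps another.
Lamb1, chr12:31265043-31265342: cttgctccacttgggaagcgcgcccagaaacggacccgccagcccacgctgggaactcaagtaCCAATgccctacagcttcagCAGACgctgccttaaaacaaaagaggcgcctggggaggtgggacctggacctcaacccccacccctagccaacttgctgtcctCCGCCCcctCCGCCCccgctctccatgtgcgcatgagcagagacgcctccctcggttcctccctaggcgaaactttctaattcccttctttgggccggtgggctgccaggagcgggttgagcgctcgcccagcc
Lamb2, chr9:108479612-108479911: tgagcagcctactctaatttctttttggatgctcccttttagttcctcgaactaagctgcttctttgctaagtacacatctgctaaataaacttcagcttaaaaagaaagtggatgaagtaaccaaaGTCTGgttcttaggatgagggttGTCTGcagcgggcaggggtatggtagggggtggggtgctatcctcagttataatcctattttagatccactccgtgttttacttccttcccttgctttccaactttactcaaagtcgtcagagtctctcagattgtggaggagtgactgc
Hspg2, chr4:137468553-137468852: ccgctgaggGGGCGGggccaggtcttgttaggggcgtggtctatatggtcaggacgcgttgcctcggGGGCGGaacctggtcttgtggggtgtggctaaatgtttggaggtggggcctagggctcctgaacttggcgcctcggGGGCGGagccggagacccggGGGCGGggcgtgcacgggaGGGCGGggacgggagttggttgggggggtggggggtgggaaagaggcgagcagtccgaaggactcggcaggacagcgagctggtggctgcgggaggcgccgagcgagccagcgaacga

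The 3 windows differed in these matches. *Hspg2* held 5 GC boxes, a number reached by 2.71% of the 32851 mouse promoters searched, and *Lamb1* held 2, reached by 19.5%. *Lamb2* held 0 GC boxes and 2 SMAD motifs, and its window was 44.0% G or C against 63.7% for *Lamb1* and 70.3% for *Hspg2*. The shares of promoters with as many GC boxes were taken over promoters of any G or C content. *Lamb1* also had a CCAAT box 187 bases and a SMAD motif 167 bases before its start. Over all promoters, 35.7% held a GC box, 37.4% a CCAAT box, 13.6% a TATA box, 7.15% an E-box, 7.81% an AP-1 motif, 49.6% a SMAD motif and 1.63% a CArG box. Among the other 3 windows, *Lama5* held 4 GC boxes, *Nid1* held 1 with a CCAAT box, and *Lama2* held the only CArG box, 39 bases before its start. The RefSeq start lay 59 bases from the GENCODE start for *Lamb1*, 126 for *Lamb2*, 34 for *Hspg2* and 2816 for *Lama2*, so the *Lama2* window belongs to a start other than the outermost.

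*Lamc1* encodes the gamma 1 chain, which nearly all laminins of the vessel wall contain and which binds nidogen (ENSMUSG00000026478, chromosome 1, 153218922 to 153332786 in GRCm38). Its normalized counts were 7925, 10123, 8236, 9889 and 9886 in young aortae and 7907, 6741, 7424, 7547 and 7422 in old aortae. The lowest young mouse, replicate 1, was just above the highest old mouse, also replicate 1, and the groups did not overlap. The mean fell from 9212 ± 1043 to 7408 ± 422 (SD, n = 5 each), a log2 difference of -0.31 ± 0.08 (edgeR adjusted p = 0.0241).

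*Nid1* and *Nid2* encode nidogen 1 and nidogen 2. *Nid1*, the more abundant per kb, was at 4720.0 to 5711 in young and 4117 to 5009 in old aortae, and its log2 difference of -0.15 ± 0.07 did not pass the test (edgeR adjusted p = 0.198). *Nid2* (ENSMUSG00000021806, chromosome 14, 19751265 to 19811787 in GRCm38) was at 362, 305, 311, 306 and 287 in the young mice and at 226, 169, 267, 265 and 259.6 in the old mice. Its groups did not overlap, and old replicate 2 was the lowest. The log2 difference of *Nid2* was -0.40 ± 0.12 with an edgeR adjusted p of 0.04995, at the very edge of the threshold, and it passed in 1 of the 10 fits that left out a mouse. *Rtraf* on the opposite strand overlaps 8.45% of the exon bases of *Nid2*. Since the strand setting of the counting is not stated, reads of that stretch could have come from either gene, and *Rtraf* itself had a log2 difference of 0.05 (edgeR adjusted p = 0.631).

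*Hspg2*, the perlecan gene, lies on chromosome 4 (ENSMUSG00000028763, 137468769 to 137570630 in GRCm38). Its normalized counts were 38857, 50284, 37808, 43979 and 47071 in young aortae and 39486, 31130.3, 31757, 35523 and 32884 in old aortae. Old replicate 1 was above young replicates 1 and 3, and the other 4 old mice were below every young mouse. The mean fell from 43599.6 ± 5313 to 34156 ± 3420.5 (SD, n = 5 each), a log2 difference of -0.34 ± 0.09 (edgeR adjusted p = 0.0317).

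The groups did not overlap, with every old mouse lower, in 3 of the 10 genes, *Lamb1*, *Lamc1* and *Nid2*. The same was seen for 4.55% of all genes tested, the opposite for 5.37%, and either for 9.92%. In the 10 fits that left out 1 mouse each, *Lamc1* passed the test in 6, *Lama4* in 4 and *Hspg2* in 3. Without young replicate 2, 4 or 5, *Lamb1* was the 1 gene of the 10 called. *Lama4* also missed the threshold without old replicate 2, 3 or 4, *Hspg2* without old replicate 2, 3, 4 or 5, and *Lamc1* without old replicate 5, with adjusted p-values of up to 0.103, 0.077 and 0.0695 in any of these fits. Without old replicate 2, the library with the high mitochondrial share, *Lamb1* and *Lamc1* were called, and *Lama4* and *Hspg2* had adjusted p-values of 0.0704 and 0.0545 with log2 differences of -0.32 each, against -0.33 and -0.34 with all mice. The log2 difference stayed negative for the same 8 genes in each of these fits.

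**Figure D2:**
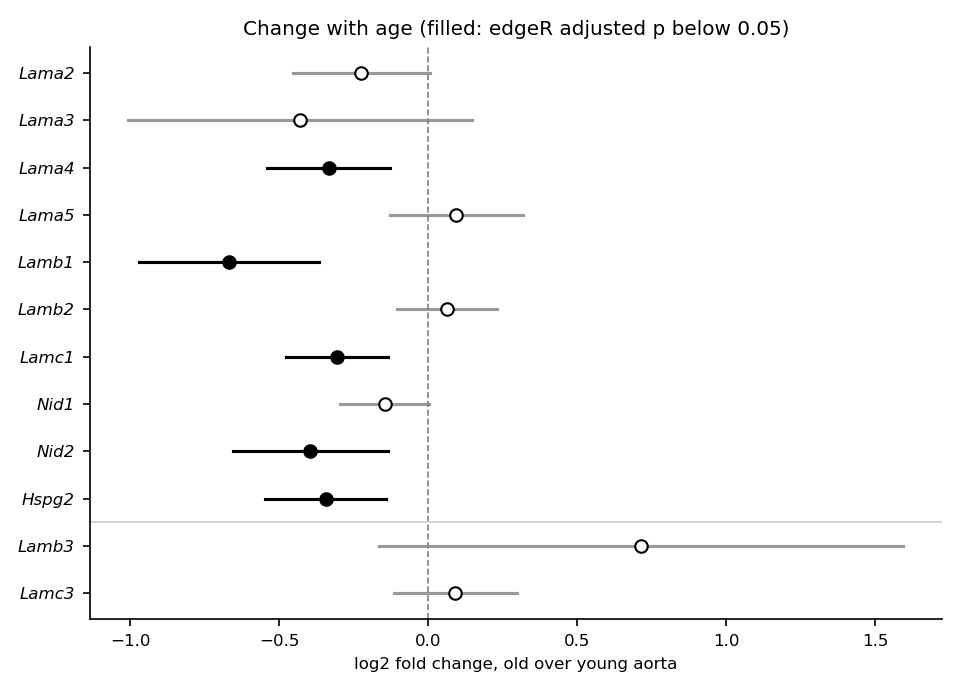
Log2 difference, old over young, of the 10 genes and of *Lamb3* and *Lamc3*, with bars for the 95% interval and filled symbols for an adjusted p below 0.05. *Lamb1*, at -0.67, has the lowest of the filled symbols, and the intervals of *Lama5*, *Lamb2* and *Lamc3* span 0.

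**Figure D3:**
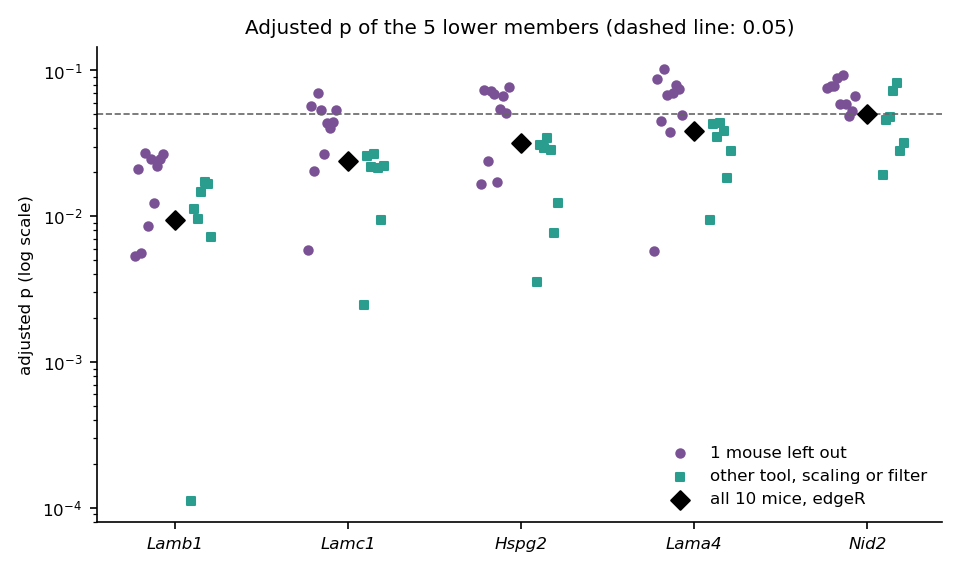
Adjusted p of each of the 5 genes called, on a log axis, with diamonds for the fit to all 10 mice, squares for another tool, scaling or filter, circles for fits without 1 mouse and a dashed line at 0.05. *Lamb1* is under the line at every point, from 0.000111 to 0.027, and the points of *Nid2* straddle it.

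Other laminin chains were measured beside these. *Lama1*, the alpha 1 chain of embryonic basement membranes, had 6 raw counts over the 5 young libraries and 8 over the 5 old libraries and was not tested. *Lamc3*, the gamma 3 chain, averaged 2468 ± 216 normalized counts in the young group and 2614 ± 367 in the old group (log2 difference 0.09, edgeR adjusted p = 0.598). *Lamb3*, a partner of the alpha 3 chain in epithelial laminin, averaged 14.3 ± 7.19 in the young group and 23.3 ± 10.8 in the old group (log2 difference 0.71, edgeR adjusted p = 0.29). Of these chains, 2 were tested and 0 were called.

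The make-up of each chain class was described as a share of its counts per kb in each library, with no test. *Lamb1* made up 1.72% ± 0.503 (SD, n = 5) of the beta chain RNA in young aortae, with a range of 1.35 to 2.58%, and 1.04% ± 0.182 in old aortae, with a range of 0.814 to 1.32%. *Lamb2* made up the rest almost entirely, 98.2% and 98.9%. The shares of *Lamb1* and *Lamb2* did not overlap between the groups, and that of *Lamb3* did. Of the sum of *Lamc1* and *Lamc3*, *Lamc1* went from 73.2% ± 2.54 to 67.7% ± 2.37 and *Lamc3* from 26.8% ± 2.54 to 32.3% ± 2.37, with overlap. Among the alpha chains, *Lama4* went from 35.8% ± 3.31 to 30.7% ± 1.6, *Lama5* from 46.6% ± 2.76 to 53.3% ± 3.68 and *Lama2* from 16.1% ± 1.36 to 14.9% ± 2.51. The alpha shares overlapped between the groups as well, and these directions were the same with the longest transcript as the length. The order of *Lama4* and *Lama5* was not, since with the longest transcript *Lama4* held 48.6% and *Lama5* 31.7% in young aortae. *Nid2* was 7.42% of nidogen RNA in young and 6.25% in old aortae. Summed by class, beta chain RNA exceeded alpha chain RNA 3.15-fold in young and 3.52-fold in old aortae, with sums per kb of 4726 ± 417 and 4880 ± 336 for beta and 1499 ± 134 and 1387 ± 140.1 for alpha chains. The size of this excess depended on the length used. With the longest transcript it was 2.34-fold in young and 2.715-fold in old aortae.

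**Figure D4:**
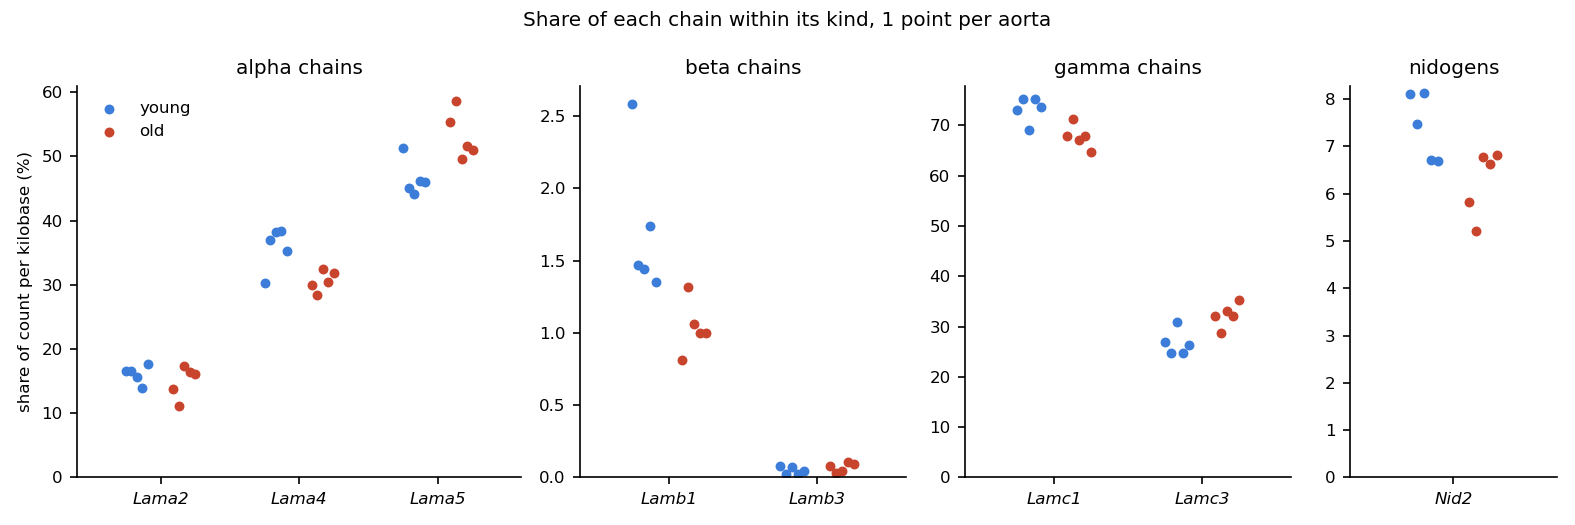
Share of its class held by each gene plotted, in percent of normalized counts per kb of exon, with a point per mouse and each vertical axis starting at 0. *Lamb2* and *Nid1*, which make up nearly all of their classes, and the scarce *Lama1* and *Lama3* are not drawn, and the gamma shares are of the sum of *Lamc1* and *Lamc3*. The *Lamb1* points of the young mice, from 1.35 to 2.58%, lie above those of the old mice, from 0.814 to 1.32%, and those of *Lama5* are mostly higher in old aortae.

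The 5 genes that fell had their highest values in 3 of the young mice. *Hspg2* and *Lamc1* were highest in replicate 2, *Lama4* in replicate 4, and *Lamb1* and *Nid2* in replicate 1. With each gene's log2 CPM centred on its own mean, the root mean square difference between 2 genes over the 10 libraries measured how alike their patterns were. *Hspg2* and *Lamc1* were the most alike pair of members, at 0.0712, followed by *Lama4* and *Lamc1* at 0.0891 and *Hspg2* and *Lama4* at 0.113. These 3 genes had their young highs in replicates 2, 4 and 5. In young replicate 1, *Lamb1* and *Nid2* were 0.778 and 0.411 above their means on the log2 scale. Old replicate 2 was the lowest of the old mice in 6 of the 10 genes, and young replicate 3 the lowest of the young in 5. Among all genes tested, the nearest to *Lamc1* were *Bpnt1* at 0.0481 and *Prrc1* at 0.0522, to *Lama4* *Rbm8a* at 0.0548 and *Amd1* at 0.0580, and to *Hspg2* *Rab23* at 0.0689 and then *Lamc1*. The measure is not scaled to a gene's own spread, which was 0.392 (SD of the log2 CPM) for *Lamb1* and 0.19 for *Lamc1*. *Lamb1* had *Rexo5* at 0.102 and *2310010J17Rik* at 0.143 as its nearest genes, and *Nid2* had *C1qtnf2* at 0.0810 and *Akap12* at 0.0906.

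**Figure D5:**
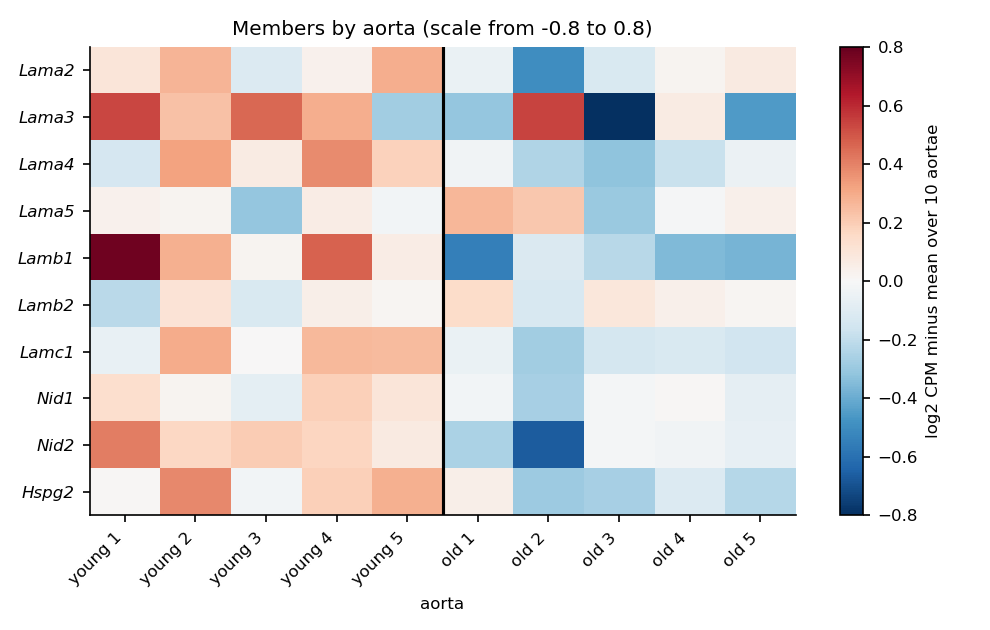
Log2 CPM of the 10 genes in the 10 aortae, each gene centred on its mean over all mice, with columns for mice and colour for the difference from the mean, cut at 0.8 in either direction, which old replicate 3 passes in *Lama3*. *Lamb1* is above its mean in all 5 young mice and below it in all 5 old mice, and old replicate 2 is low for *Nid2*, at -0.67, and *Lama2*, at -0.50.

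Cell type markers are given beside these values, and their calls stand beside 11.5% called over all genes tested. The endothelial list summed to 1015 to 1722 CPM in young and 592 to 1202 CPM in old aortae, with 0 of its 8 genes called higher, 1 called lower (*Tek*, the angiopoietin receptor) and a median log2 difference of -0.58. Old replicate 2 had the highest endothelial sum of the old mice, 1202 CPM, and also their highest *Lama3*. Adipocyte markers summed to 486 to 1666 CPM in young and 288 to 709 CPM in old aortae, with 0 of 8 called, and were highest in young replicate 1, as were *Lamb1* and *Nid2*. Among the old mice the adipocyte sum was highest in replicate 2. That mouse had the highest *Lamb1* of the old group, 569 normalized counts, but the lowest *Nid2*, 169. The smooth muscle list summed to 36880 to 43660 and 34450 to 42000 CPM with 1 of 8 genes called, *Smtn*, higher. Fibroblast markers summed to 4196 to 4657 and 3987 to 5256 CPM, with *Lum* higher and *Pi16* lower of 8, and macrophage markers to 382 to 481 and 479.6 to 955 CPM, with *Cd68*, *Adgre1* and *C1qa* higher of 8. Schwann cell markers summed to 48.0 to 91.6 and 71.1 to 84.6 CPM with *Prx* higher of 7 tested and *Pmp2* at 0 throughout. Pericyte markers summed to 4164 to 6577 and 4554 to 7477 CPM with 0 calls of 6, and lymphocyte markers to 1.11 to 5.09 and 2.87 to 20.1 CPM with 0 of 3 tested. Striated muscle markers summed to 18.6 to 53.8 and 32.1 to 81.3 CPM with *Tnnt2* higher and *Actc1* lower of 5 tested. The part of these cell types in the lower laminin RNA was not tested.

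Of 27 other components of the basement membrane, 11 were lower in old aortae and 1 was higher, with a median log2 difference of -0.27. Over all genes tested, 4.99% were lower and 6.48% higher. *Sparc*, a collagen-binding matricellular protein, fell from 104513 ± 6325 to 53278 ± 9220.3 normalized counts (log2 difference -0.96 ± 0.11 SE, edgeR adjusted p = 0.00018). *Col4a5*, a collagen IV chain, fell by 34.2% (adjusted p = 0.000749), *Npnt*, the integrin ligand nephronectin, by 35% (0.00089), and *Pxdn*, the peroxidase that crosslinks collagen IV, by 32.8% (0.000976). *Col4a1*, which partners with *Col4a2* in the common collagen IV trimer, was lower as well (log2 difference -0.47 ± 0.11 SE, edgeR adjusted p = 0.0185), and *Col4a2* had a log2 difference of -0.32 (edgeR adjusted p = 0.0762). *Agrn*, *Fras1*, *Col4a6*, *Fbln2*, *Tinagl1* and *Fbln1* were the other 6 lower genes, and *Vwa1* was the 1 higher gene. *Fbln1* lost its call without young replicate 2 or 5 or old replicate 1 or 2, *Tinagl1* without young replicate 4 or 5 or old replicate 2, 3 or 5, and *Col4a1* without young replicate 4 (adjusted p = 0.0532), while the other 9 passed whichever mouse was left out. *Col4a2* passed in 3 of 17 alternative fits, among them those without young replicate 1 or old replicate 1. Its lowest adjusted p, 0.0298, came from a fit to all mice with a changed tool, scaling, filter or correction. The study, which used DESeq2, listed *Col4a2* among the genes lower in old aortae.

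The lists that follow stand beside 11.5% of all genes tested called, 4.99% lower and 6.48% higher. Of 14 receptors of laminin and perlecan, 2 were lower and 0 higher. The share called in either direction was near the 11.5% over all genes, and the share called lower stands beside 4.99%. The lower receptors were the heparan sulfate proteoglycans *Sdc1* (log2 difference -0.42, edgeR adjusted p = 0.0209) and *Sdc4* (-0.46, 0.0345). The median log2 difference of the list was -0.09. *Itga7* and *Itgb1*, the subunits of the main laminin integrin of muscle, had log2 differences of -0.09 and -0.08, and *Dag1*, which encodes dystroglycan, of -0.21 (edgeR adjusted p = 0.106, passing without young replicate 1). *Bcam*, a receptor for alpha 5 laminin, was at 0.10. Of 12 genes of the dystrophin complex, which links dystroglycan to the cytoskeleton, 0 were called. The 11 tested enzymes that build the laminin-binding sugar of dystroglycan gave 3 lower genes, *Pomt2* (-0.27, 0.0186), *B3galnt2* (-0.30, 0.0306) and *Rxylt1* (-0.21, 0.0468), and 1 higher gene, *Pomgnt2* (0.26, 0.0369), each with its log2 difference and edgeR adjusted p. Of 20 enzymes that make or trim heparan sulfate, the sugar that perlecan carries, 4 were lower and 0 higher. They were *Hs6st2* (-0.96, 0.00213), *Xylt1* (-0.48, 0.00472), which starts the chain, *Ext1* (-0.44, 0.013), which extends it, and *Glce* (-0.31, 0.0356). *Hs6st2*, *Xylt1* and *Ext1* passed whichever mouse was left out, and *Sdc1* missed without old replicate 5 (adjusted p = 0.0509). The calls of *Sdc4*, *Glce*, *Pomt2*, *B3galnt2*, *Rxylt1* and *Pomgnt2* were each lost in at least 2 of the 10 fits that left out a mouse, with adjusted p-values of up to 0.106.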

How the data were processed

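The aortae of 5 young and 5 old male C57BL/6 mice were sequenced after poly(A) selection with a stranded kit. Per the labels and the methods of the study, the authors trimmed reads with fastp 0.20.0, aligned them to GRCm38 with STAR 2.7.0f and counted them per gene with featureCounts of Subread 1.6.4 on a GENCODE annotation. The strand setting and the treatment of reads that fit several genes are not given in the sources used here. The deposited table holds these raw counts as whole numbers for 55453 symbols, of which 28011 had a count. Gene positions and lengths came from GENCODE M21, a release close to that of the authors, on GRCm38.

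Groups came from the sample labels, and each mouse was 1 replicate. Counts were fitted in edgeR 4.0.16 (R 4.3.3) with its default low-count filter, which kept 14614 genes, TMM scaling and the robust quasi-likelihood F test, with no covariate. The study used DESeq2, which served as an alternative here. Normalized counts were deposited counts divided by DESeq2 1.42.0 size factors. Between libraries of a group, the mean squared difference was 8.6 to 64.8 times the variance expected from counting alone, so each was counted as its own replicate. Alternatives were DESeq2, limma-voom (limma 3.58.1), 3 other scalings, no filter, a replicate block, a correction for GC content and length, a threshold of 0.01 and each mouse left out. The edgeR code was tested on simulated counts. Named genes were the 10 members, other laminin chains, up to 4 called genes per list by p, and 6 set genes (*Col4a1*, *Col4a2*, *Itga7*, *Itgb1*, *Dag1* and *Bcam*); genes past the fourth of a list and called marker genes were named after their values were seen. The members and lists were chosen with earlier results of these data known. One item of these lists is not reported here.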

Additional observations from a re-analysis of the deposited data

Results flagged for a closer look

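Of 50 groups of 5 libraries checked, one per gene or chain share in young or in old aortae, 5 had a library far from the other 4, and chance alone gives about 1 in 20. *Lama5* was low in young replicate 3, at 6555 normalized counts against 8057 to 8512 in the other young mice. *Nid1* was low in old replicate 2, at 4117 against 4766 to 5009. *Lama1* was high in young replicate 5, at 4.10 normalized counts against 0 to 1.02, which gave it 0.0275% of the alpha chain RNA there against 0 to 0.00791%. The *Lama5* share of the alpha chains was high in young replicate 1, at 51.3% against 44.2 to 46.2%.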

How the results depend on the processing

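The number of members called, 5 in edgeR, was 5 or 4 under each change of tool, scaling, filter, GC content and length. Within edgeR it was 1 (*Lamb1*) with the replicate number as a block or at a threshold of 0.01. Leaving out each mouse, also in edgeR, gave 1 to 4. DESeq2 adjusted p-values were 0.000111 for *Lamb1*, 0.00246 for *Lamc1*, 0.00355 for *Hspg2*, 0.00948 for *Lama4* and 0.0192 for *Nid2*. Those of limma-voom ran from 0.0112 for *Lamb1* to 0.046 for *Nid2*. No member was called higher under any of these settings. *Nid2* lost its call with upper-quartile scaling (adjusted p = 0.072) and library size alone (0.0819). The replicate numbers did not pair the mice: same-numbered libraries had correlations of -0.30 to 0.132, 1 of 5 over 0.1, and 2 of 5 correlated best with their own number, so the block is a value only. Genes called over the whole table, 1676 in edgeR, were 658 at the threshold of 0.01 (395 higher and 263 lower) and 1132 to 2367 without 1 mouse. The 729 called lower were 467 with the block and 474 to 1139 without 1 mouse, the extremes being young replicates 4 and 1. Calls in the lists of other basement membrane, receptor and enzyme genes, 22 in edgeR, were 13 with the block, 10 at 0.01, and 14 to 25 without 1 mouse. For single named genes, 602 alternative values kept their side of the threshold, 96 lost it, 4 gained it and 0 changed sign. Of the chain shares, 27 alternative values moved by more than the spread between mice and 141 did not.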

Other observations

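*Lama3* was not among the genes called, and its nearest genes were chosen after its values were seen. On the centred log2 CPM of the 10 libraries, the genes nearest to *Lama3* were *Rasip1* at a root mean square difference of 0.160 and *Podxl* at 0.176. *Itgb4*, the integrin subunit that pairs with the alpha 6 chain in hemidesmosomes, *Nod2* and *Gm6981* followed, each at 0.193. *Rasip1* and *Podxl* are known from endothelial cells. *Lama3* was at 282 normalized counts in old replicate 2 and 90.4 in old replicate 3, the old mice with the highest and lowest endothelial marker sums, 1202 and 592 CPM. Among young mice the 2 highest *Lama3* values, 283 in replicate 1 and 267 in replicate 3, came with the 2 highest sums, 1419 and 1722 CPM. The lowest *Lama3*, 161 in replicate 5, came with a sum of 1090.0 CPM, and the lowest sum, 1015 CPM in replicate 2, came with a *Lama3* of 229.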
